A study of Mus musculus with 32 samples.

Results

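The genes followed here encode 6 ETS-family transcription factors, Etv1, Etv4, Etv5, Ets1, Ets2 and Gabpa. They were chosen by name as ETS factors, other than ETV2, proposed to act on the limb enhancer of Shh, called the ZRS. ATAC-seq reports accessible chromatin, so the data describe the chromatin at the genes of these factors and not where the factors bind. A summit (the point of highest signal in a called peak) was assigned to a gene when it lay in the gene body or within 50 kb of it and the nearest protein-coding start belonged to that gene. Of 1234971 summits in the 32 deposited lists, 641 met this rule, and neighbouring summits joined across libraries gave 46 sites listed in at least 2 libraries, of 94463 such sites in the genome. Of these sites, 7 were promoter sites (centre within 1 kb of a start) and 39 were distal, and 18 more regions near these genes were listed in 1 library only. Etv1 and Ets1 had 11 sites each, Etv4 and Ets2 had 8 each, Etv5 had 7 and Gabpa had 1. In mm10 the genes lie at chr12:38779380-38870484 (Etv1, + strand), chr11:101769742-101785371 (Etv4, - strand), chr16:22381309-22439719 (Etv5, - strand), chr9:32636221-32757820 (Ets1, + strand), chr16:95702075-95721051 (Ets2, + strand) and chr16:84834925-84863779 (Gabpa, + strand).

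ETS factors share a DNA-binding domain that reads a purine-rich GGA core. ETV1, ETV4 and ETV5 form the PEA3 subfamily, whose transcription is induced by FGF signalling, and in the limb bud ETV4 and ETV5 act with FGF from the apical ridge to keep Shh from being expressed in the anterior mesenchyme. ETS1, ETS2 and GABPA act mainly as activators, and earlier studies proposed ETS1 and GABPA as activators at the ZRS. In the authors' reporter assay ETV2 activated the ZRS significantly, and ETS1 and ETS2 did not. GABPA is expressed very widely and binds DNA as a complex with GABPB.

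The sequences below are from the + strand of GRCm38.p6 (mm10), written from the lower to the higher coordinate. They are the 200-bp intervals of some of the distal sites described below. A site is named by the gene and by the distance of its centre from the nearest protein-coding start, with + for downstream and - for upstream. Etv1 +71.0 kb and Ets2 -27.2 kb, which also enter the comparisons, are not shown. Sites upstream of an Ets1 start can still be intronic, because GENCODE places a longer non-coding Ets1 transcript there. Capitals mark the ETS words that were searched on both strands, AGGAAGT and AGGAAAT (the core given for the ZRS) and CCGGAAGT (a GABPA-type word), and an interval without capitals held none of them. All of the sites shown were in introns of the gene that names them.
Etv4 +12.6 kb (chr11:101772628-101772827): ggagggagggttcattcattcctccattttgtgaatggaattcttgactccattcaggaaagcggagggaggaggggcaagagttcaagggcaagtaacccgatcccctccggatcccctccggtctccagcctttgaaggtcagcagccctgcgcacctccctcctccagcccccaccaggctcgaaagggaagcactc
Etv1 +60.4 kb (chr12:38843847-38844046): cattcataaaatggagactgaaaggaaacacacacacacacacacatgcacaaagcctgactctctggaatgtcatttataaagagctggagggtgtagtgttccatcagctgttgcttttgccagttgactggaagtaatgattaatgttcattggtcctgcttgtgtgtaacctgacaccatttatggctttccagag
Etv1 +32.8 kb (chr12:38816231-38816430): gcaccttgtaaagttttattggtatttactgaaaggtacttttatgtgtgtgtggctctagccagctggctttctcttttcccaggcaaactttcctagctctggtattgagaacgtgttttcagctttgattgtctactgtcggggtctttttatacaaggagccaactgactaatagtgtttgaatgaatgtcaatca
Etv1 +5.3 kb (chr12:38788685-38788884): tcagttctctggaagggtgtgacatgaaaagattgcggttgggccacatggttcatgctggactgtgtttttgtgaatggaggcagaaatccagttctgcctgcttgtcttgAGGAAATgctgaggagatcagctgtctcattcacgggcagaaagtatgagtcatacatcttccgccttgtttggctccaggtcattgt
Etv5 +7.5 kb (chr16:22428913-22429112): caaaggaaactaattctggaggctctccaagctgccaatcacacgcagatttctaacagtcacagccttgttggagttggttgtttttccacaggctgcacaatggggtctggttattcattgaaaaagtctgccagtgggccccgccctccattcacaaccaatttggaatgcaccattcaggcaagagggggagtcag
Ets1 -10 kb (chr9:32685930-32686129): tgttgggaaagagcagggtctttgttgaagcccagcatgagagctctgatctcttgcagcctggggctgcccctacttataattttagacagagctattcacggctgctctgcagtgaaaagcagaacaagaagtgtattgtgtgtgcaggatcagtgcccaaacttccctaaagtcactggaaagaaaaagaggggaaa
Ets1 +24.2 kb (chr9:32720459-32720658): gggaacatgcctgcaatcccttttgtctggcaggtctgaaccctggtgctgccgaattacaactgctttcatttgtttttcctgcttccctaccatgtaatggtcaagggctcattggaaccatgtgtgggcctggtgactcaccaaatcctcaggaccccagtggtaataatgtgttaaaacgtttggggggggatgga
Ets1 +49.7 kb (chr9:32746017-32746216): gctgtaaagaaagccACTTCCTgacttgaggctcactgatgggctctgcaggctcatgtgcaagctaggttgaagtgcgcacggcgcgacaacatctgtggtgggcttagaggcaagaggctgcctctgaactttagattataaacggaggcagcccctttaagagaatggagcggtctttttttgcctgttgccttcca

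The promoter sites of Ets2 and Gabpa lay in first exons, and only the word with 10 bases on each side is shown for them. They were the only promoter sites of the 6 genes with a searched word.
Ets2 +413 bp (chr16:95702450-95702476): cgggctggttACTTCCTtcaccgcggc
Gabpa +63 bp (chr16:84835002-84835028): aaacaggaggAGGAAGTggagggtaag

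The share of intervals with each word was set beside that of the genome. AGGAAGT stood in 2 of the 10 promoter intervals of the 6 genes, against 4.33% of all promoter intervals. In the distal intervals AGGAAGT stood in 1 of 52, against 5.9% of all distal intervals, and AGGAAAT stood in 5 of 52, or 9.62%, against 8.11%. CCGGAAGT stood in none of them, and it was found in 3.57% of all promoter and 0.295% of all distal intervals. A match gives the letters in the window and is not a bound site.

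The libraries came from mouse limb buds and fell into 12 groups in 2 experiments. In the first experiment of 18 libraries, EYFP+ cells were sorted from forelimb buds (E10.5 FL EYFP+, 3 libraries) and hindlimb buds (E10.5 HL EYFP+, 3 libraries) of the same pools of Etv2-EYFP transgenic embryos from CD1 females, after cells with CD31, TIE2 or CD45 (markers of endothelium and blood) were removed. Single libraries were made from wild-type hindlimb buds at E9.5 (E9.5 HL), from Shh-EGFP+ cells of the posterior hindlimb (E10.5 Posterior) and from the anterior hindlimb of Shh-EGFP embryos (E10.5 Anterior). Posterior hindlimb cells lacking Etv2, from embryos that carry HoxB6-Cre with a floxed and a null Etv2 allele, gave E10.5 CKO (2 libraries) and E10.25 CKO (5 libraries), and wild-type posterior hindlimb cells gave E10.25 WT (2 libraries). HoxB6-Cre acts in the precursors of the whole hindlimb, so the deletion was not confined to posterior cells. The second experiment of 14 libraries divided hindlimb buds into anterior and posterior parts, in 4 control embryos (replicates 1 to 4, littermates lacking HoxB6-Cre or another of the transgenes) and 3 Etv2OE embryos (replicates 7, 9 and 10). Etv2OE embryos carried HoxB6-Cre, iHA-Etv2 and ROSA26-STOP-rtTA-IRES-EGFP, all heterozygous. Doxycycline was injected into the pregnant dams, so the control littermates were exposed to it as well. Not every cell of an Etv2OE bud makes HA-ETV2. These 14 libraries are labelled E10.5, although the methods describe a later harvest. The anterior and posterior parts are those named by the A and P at the end of each label.

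Lists held 13763 (E10.5 Anterior) to 54676 summits, and E10.25 CKO replicates 2 and 4 were also short, with 15626 and 19734 summits. A short list reaches fewer weak summits, and read depth is unknown, so a summit that is not listed is not evidence of closed chromatin. The promoters of 8 limb mesenchyme genes (among them Prrx1, Twist1 and Lhx2) were listed for 5 to 8 genes in every library except E10.5 Anterior, with 2. Of 11 endothelial genes, 2 to 7 had a listed promoter in a given library. Kdr was listed in all 32 libraries, Egfl7 in 30, Flt1 in 24, Cldn5 in 23 and Sox17 in 20. Esam was listed in 7, Tek in 4, Emcn in 1, and Cdh5, Pecam1 and Tie1 in none. At the Etv2 gene itself a summit was listed in 2 of 2 E10.25 WT libraries, in 0 of 5 E10.25 CKO and in 0 of 2 E10.5 CKO libraries, and in 1 of 3 libraries of each EYFP+ group. Other libraries with Etv2 intact did not list it either, among them E10.5 Anterior and Control anterior replicates 2 and 3. Of all sites joined across libraries, 5.61% were listed in both E10.25 WT and no E10.25 CKO libraries. Among the best 10000 ranks of a library, promoters made up 71.0% to 79.6% of the sites in the 7 E10.25 libraries, 70.3% in E9.5 HL and 73.4% in E10.5 Posterior, and 56.1% to 66% in the other 23.

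Within each list, summits were ranked by the peak caller's significance, with rank 1 for the strongest. All promoters of the 6 genes were listed in every library, and 6 of the 7 promoter sites (85.7%) were listed in 30 or more libraries, against 54.4% of 16387 promoter sites in the genome. The distal sites were listed in a median of 8 libraries, against 7 for 78076 distal sites in the genome. Of the distal sites, 3 of 39 (7.69%) were listed in 30 or more libraries, against 3.84% of the genome's, and 17 of 39 (43.6%) in 5 or fewer, against 43.9%. The 3 shared distal sites were Etv4 +12.6 kb, Ets1 -23.6 kb and Ets1 +24.2 kb.

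**Figure D1:**
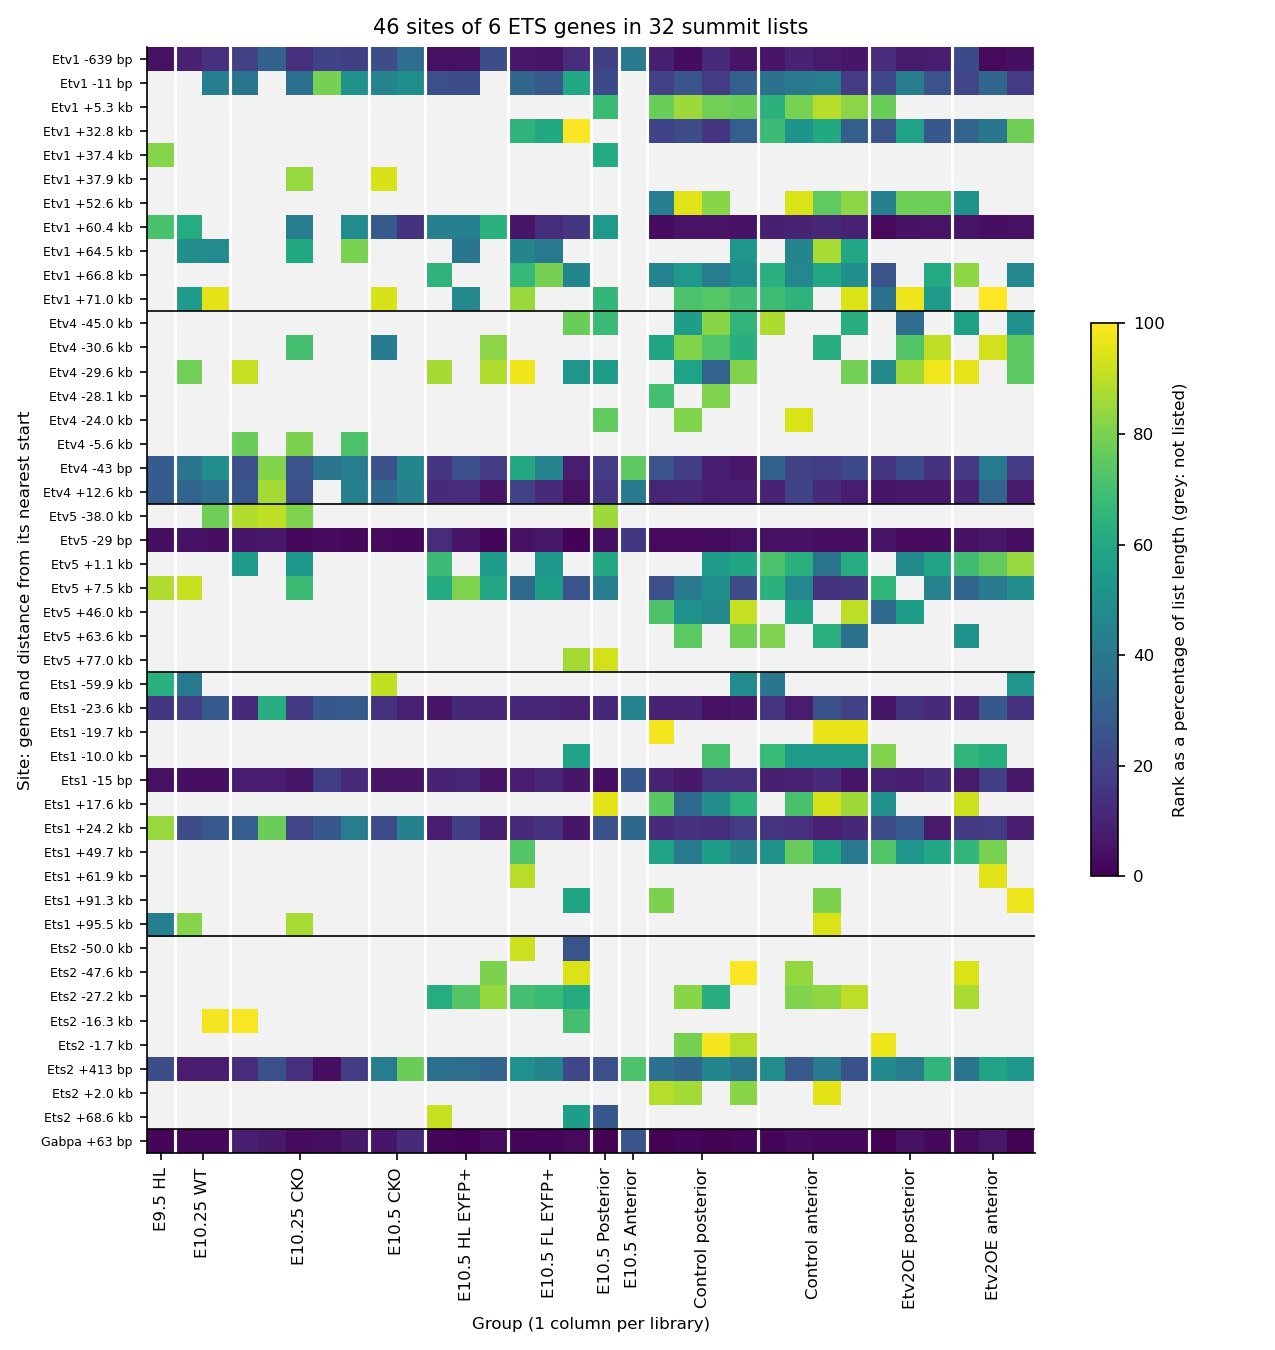
Rank of each of the 46 sites (rows) in each of the 32 libraries (columns), as a percent of the length of that library's list, with grey where the site was not listed. The promoter sites and the 3 shared distal sites form filled rows, and the rows of the other distal sites are broken and weak.

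The PEA3 promoters differed in strength. Etv5, the FGF-responsive repressor that acts together with ETV4, had the strongest, with a summit at -29 bp that ranked 425 at best, 1657 in the median library and 4081 at worst. Its median rank stood at 4.11% of the list length. In E10.5 HL EYFP+ cells the Etv5 promoter ranked 4081, 2388 and 425, and in E10.5 CKO cells 928 and 562, so the range of the former covered the latter. The Etv1 promoter site at -639 bp was listed in all 32 libraries with a median rank of 4113.5 (860 to 10137). The next Etv1 start, with a site at -11 bp, was listed in 27 libraries at ranks of 6545 to 29057. The Etv4 promoter was the weakest of the subfamily, with a median rank of 9029.5 (3381 to 22508). Its spread was wide within a group: the Etv4 promoter ranked 22508, 20671 and 3726 in the 3 E10.5 FL EYFP+ libraries, and 5161, 10067 and 5994 in the 3 E10.5 HL EYFP+ libraries.

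Among the activators, the Gabpa promoter, which is shared with the divergent gene Atp5j (a subunit of the mitochondrial ATP synthase), had the best median rank of the 6 genes, 893.5 (257 to 3629). Its 3 weakest ranks were 3629 in E10.5 Anterior, 3534 in E10.5 CKO replicate 2 and 2718 in E10.25 CKO replicate 1. The Ets1 promoter had a median rank of 3211.5 (1203 to 8115), and its 3 weakest raw ranks, 8115, 7533 and 6102, were in the overexpression experiment. As a share of list length its weakest rank was in the first experiment, at 27.6%, against 18.7% in the overexpression experiment. Ets2 had the weakest promoter by median, 14533, and the widest range, 842 to 25562.

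By median rank over the 32 libraries the promoters stood in the order Gabpa, Etv5, Ets1, Etv1, Etv4 and Ets2. The ranges of neighbours in this order overlapped in every case, and a rank follows the peak caller's significance, which is not a level of transcription.

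The Ets2 promoter was set apart in raw rank by the E10.25 libraries. It ranked 4158, 3808, 5931, 842 and 5525 in E10.25 CKO and 3350 and 2632 in E10.25 WT. In the other 25 libraries it ranked between 8760 (E9.5 HL) and 25562 (Etv2OE posterior replicate 10). The 2 sets thus did not overlap in raw rank, whereas CKO and WT at E10.25 did. As a share of list length the 2 sets overlapped. E10.25 CKO replicate 2 (3808 of 15626 summits) stood behind E10.5 FL EYFP+ replicate 3 (10282 of 48381). Of 5946 promoter sites listed in all 32 libraries, 90 (1.51%) were ahead in raw rank in all 7 E10.25 libraries. Ets2 was the only one of the 6 genes among them. This pattern was picked out after its values were seen, and no test was made of it. The E10.25 libraries also held the larger promoter shares given above, and the part of that difference in the Ets2 ranks was not tested.

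**Figure D2:**
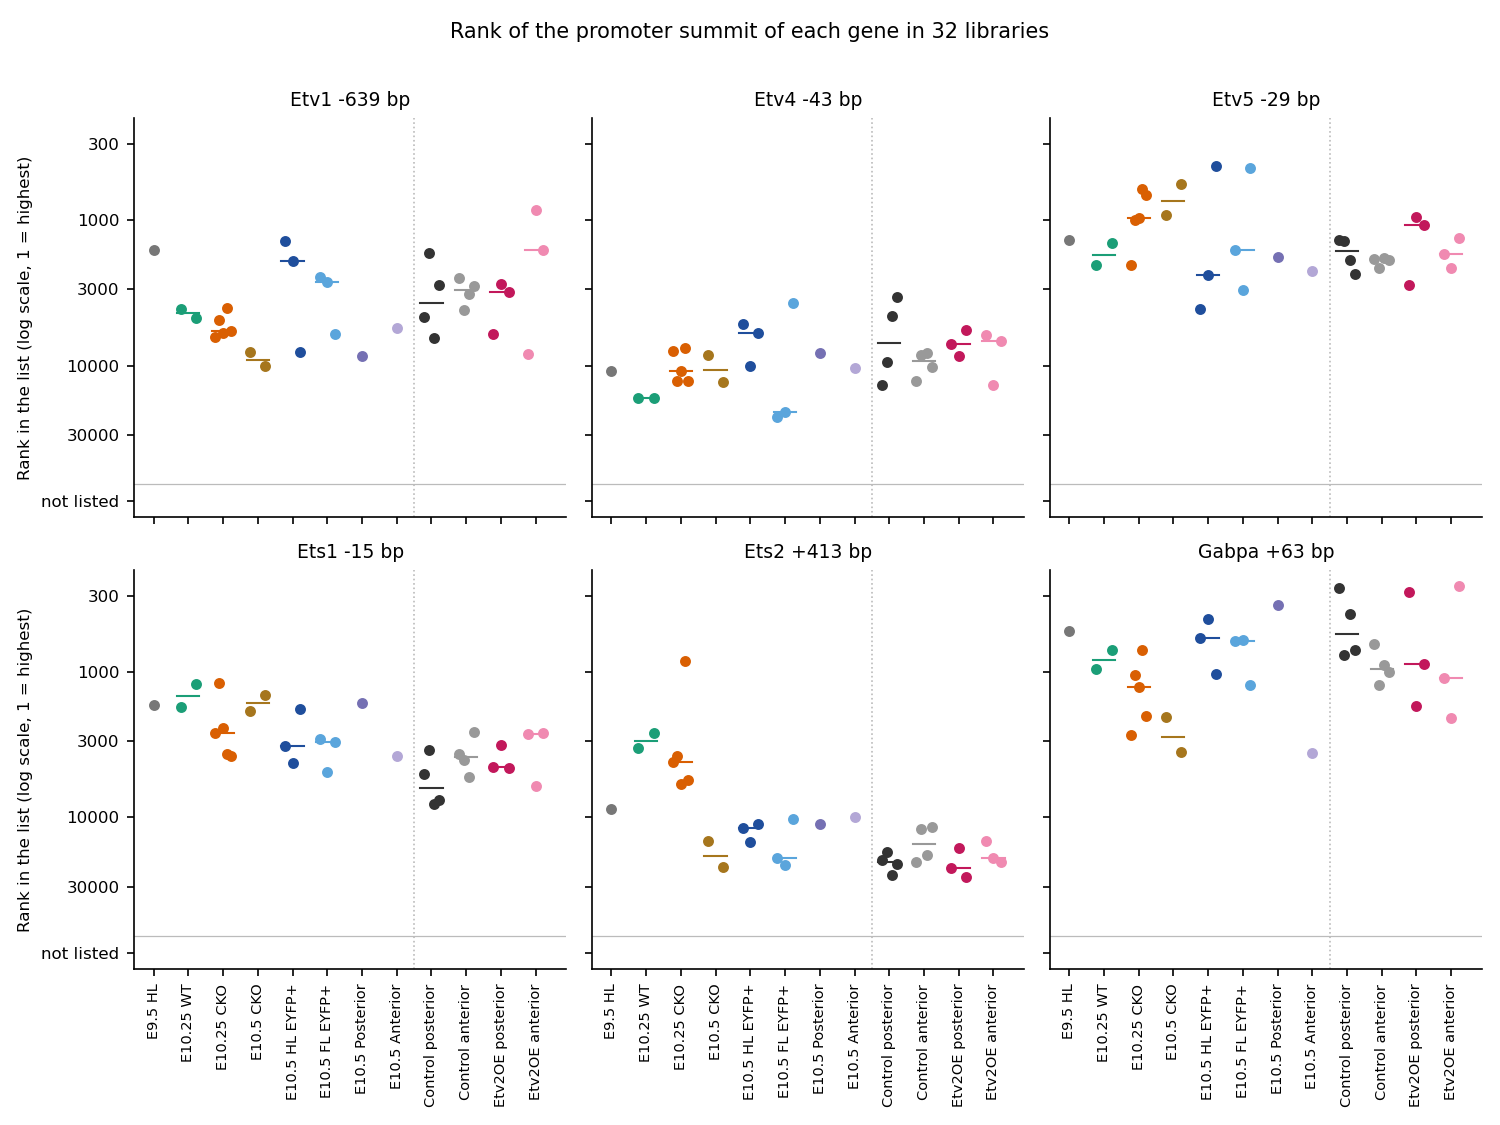
Rank of the promoter summit of each gene (one panel per gene, log axis with the strongest rank at the top) by group. Each point is 1 library, a short bar is the group median and the dotted line divides the 2 experiments. All 6 promoters are listed in all 32 libraries, and the raw Ets2 ranks of the 7 E10.25 libraries are ahead of those of the other 25.

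The distal site shared by most libraries at a PEA3 gene was Etv4 +12.6 kb, which was listed in 31 of 32. In E10.5 FL EYFP+ cells it ranked 7340, 5511 and 2211 and in E10.5 HL EYFP+ cells 4030, 5166 and 1860. E10.5 CKO cells had ranks of 12010 and 12332, both weaker than all 6 EYFP+ libraries. At E10.25 the ranks were 8734, 13538, 10395 and 13177 in 4 CKO libraries, with none in replicate 4, and 14022 and 12458 in WT. Here CKO and WT overlapped, and a wild-type library held the weakest rank of all. In the overexpression experiment Etv4 +12.6 kb ranked from 2595 to 10600 in the 14 libraries, and the 3 Etv2OE posterior ranks, 2759, 2595 and 2704, were all stronger than the 4 control posterior ranks, 5346, 5898, 4474 and 4539. The single libraries ranked 10539 (E9.5 HL), 7063 (E10.5 Posterior) and 5598 (E10.5 Anterior). The share of all sites whose groups separate fully in rank was not counted, here or at the distal sites below.

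Etv1 had several distal sites in its long introns, and their ranks differed between groups. Etv1 +60.4 kb was listed in 27 libraries. It ranked 3656, 4213, 5135 and 4172 in control anterior and 1568, 2621, 2887 and 2726 in control posterior cells, so every posterior rank was the stronger. Etv2OE cells had ranks of 2173, 1368 and 1701 in the anterior and 1258, 1860 and 2033 in the posterior part. The EYFP+ groups did not overlap, with 2128, 6099 and 7579 in forelimb and 14018, 17955 and 22094 in hindlimb cells. E10.5 CKO cells, from the hindlimb as well, had 9731 and 4160. The site was weak or not listed in the remaining libraries: 2 of 5 E10.25 CKO libraries (17956 and 14547), 1 of 2 E10.25 WT libraries (26897), E9.5 HL (26304), E10.5 Posterior (24463) and not E10.5 Anterior.

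Etv1 +32.8 kb was listed in 17 libraries, which were all 14 of the overexpression experiment (8372 to 29783) and the 3 E10.5 FL EYFP+ libraries (24269, 28050 and 48009). None of the other 15 libraries listed it. Etv1 +66.8 kb was listed in 16 libraries, 12 of them of the overexpression experiment, with 3 of 3 E10.5 FL EYFP+ and 1 of 3 E10.5 HL EYFP+ libraries. Etv1 +5.3 kb was listed in all 8 control libraries, weakly, at ranks of 26350 to 43791, in E10.5 Posterior (30961) and in 1 of 6 Etv2OE libraries (posterior replicate 7, 36406). Etv1 +71.0 kb was listed in 16 libraries over 9 of the 12 groups, which included both E10.25 WT libraries (23881 and 32671) and none of 5 E10.25 CKO libraries.

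At Etv5, the site in most libraries was Etv5 +7.5 kb, with 23. It was listed in all 6 EYFP+ libraries (12386 to 33229), in 13 of 14 libraries of the overexpression experiment (6498 to 31126) and in neither E10.5 CKO library. At E10.25 it was listed in 1 of 5 CKO libraries (29220) and 1 of 2 WT libraries (39984). Etv5 +1.1 kb was listed in 17 libraries and Etv5 +46.0 kb in 8, the latter all of the overexpression experiment. The remaining Etv4 sites were intergenic, and the most shared were Etv4 -29.6 kb (16 libraries) and Etv4 -30.6 kb (12 libraries).

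The Ets1 locus held both distal sites listed in all 32 libraries. Ets1 -23.6 kb ranked 1828 to 11023, and Ets1 +24.2 kb ranked 2558 to 12761 in 31 libraries and 31269 in E9.5 HL. In E10.5 CKO cells Ets1 +24.2 kb ranked 8004 and 12413, and in E10.5 HL EYFP+ cells 2558, 7735 and 2854. These ranks did not overlap, and the share of all sites that separate likewise was not counted. Ets1 +49.7 kb, with an ACTTCCT word, was listed in 13 of 14 libraries of the overexpression experiment (18558 to 34360) and in 1 of the other 18 (E10.5 FL EYFP+ replicate 1, 27259). Ets1 -10 kb was listed in 9 libraries. It ranked 27675, 23617, 23899 and 24880 in the 4 control anterior libraries and 38865 in 1 of 4 control posterior libraries. In Etv2OE cells it was listed in 2 of 3 anterior libraries (24441 and 20608) and 1 of 3 posterior libraries (38196), and the ninth library was E10.5 FL EYFP+ replicate 3 (28148).

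Ets2 had no distal site in more than 12 libraries, and Gabpa had none in 2 or more. Ets2 -27.2 kb was listed in all 6 EYFP+ libraries (19910 to 31114), in 5 of 8 control libraries (34185 to 42106), in 1 of 6 Etv2OE libraries (32502) and in none of the other 12. The next most shared were Ets2 -47.6 kb (5 libraries), then Ets2 -1.7 kb and Ets2 +2.0 kb (4 libraries each).

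**Figure D3:**
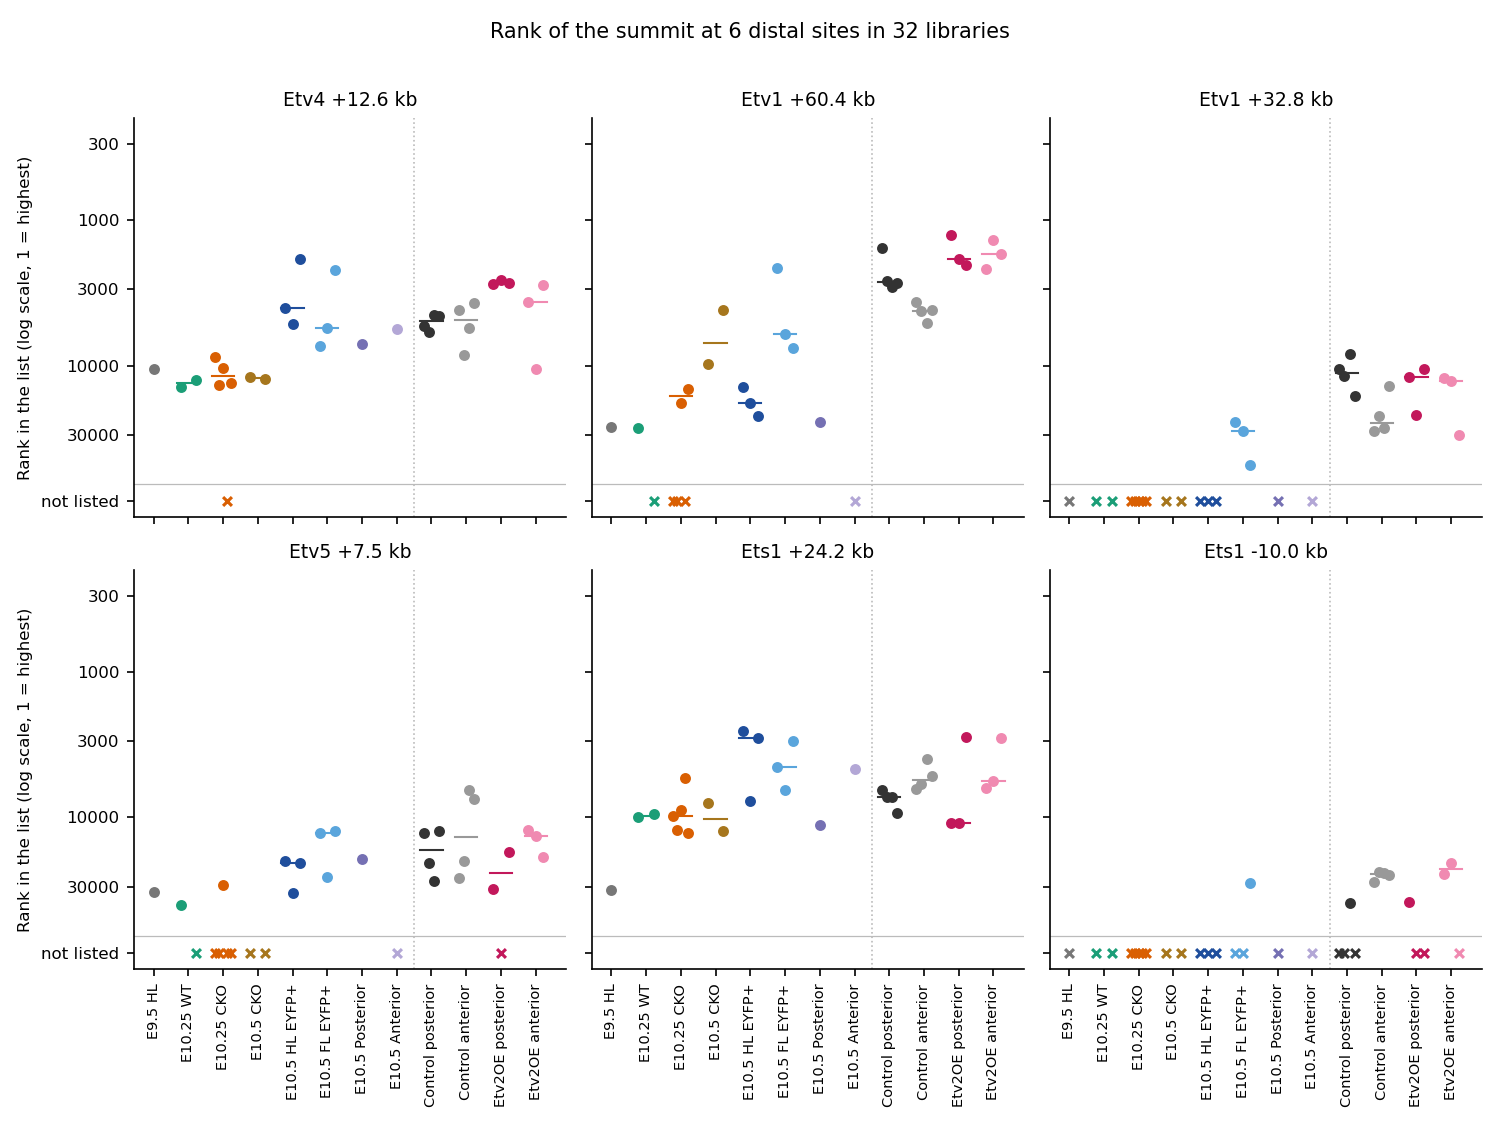
Rank of the summit at 6 distal sites (one panel per site, log axis with the strongest rank at the top) by group. Each point is 1 library, a cross is a library that did not list the site, a short bar is the median of the listed ranks and the dotted line divides the 2 experiments. Etv4 +12.6 kb and Ets1 +24.2 kb are listed almost throughout, and Etv1 +32.8 kb is listed in forelimb EYFP+ cells and in the overexpression experiment only.

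For the comparisons, each list was reduced to its best 10000 summits (first experiment) or best 30000 (overexpression experiment), so that libraries of unequal length could be set side by side. Each 200-bp interval then received a rank score, which is close to 1 for the strongest summit and 0 for an interval outside the reduced list. Differences in mean score were tested by limma over all intervals listed in at least 2 of the compared libraries, with Benjamini-Hochberg adjustment over all of them and a threshold of 0.05. A lack of a call does not show that groups were alike, since the groups had 2 to 5 libraries, and p-values measure the spread between these libraries, which for most groups are not stated to be separate animals.

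The first comparison asked whether the genes differed between the anterior and the posterior hindlimb of control embryos. Along this axis the PEA3 factors and the activators are proposed to have opposed roles. Of 42952 intervals, 816 (1.9%) were called, 371 with higher scores in the anterior and 445 in the posterior part. None of the 28 intervals of the 6 genes was called, and 1 had an unadjusted p under 0.05. That one was Ets1 -10 kb, with a mean score of 0.166 in the 4 anterior libraries and 0 in the 4 posterior libraries, a difference of 0.166 ± 0.0404 (SE; limma, adjusted p = 0.115). It was the only one of 25 sites listed in all anterior and no posterior libraries of equal length, a pattern held by 1.16% of all such sites, and in the whole lists 1 posterior library had it. Etv1 +60.4 kb, ahead in rank in every posterior library, had mean scores of 0.857 and 0.918, a difference of -0.0615 ± 0.0323 (SE; limma, adjusted p = 0.529). With the embryo as a block, since both parts came from the same embryos, 66 intervals (0.154%) were called and again none of the 6 genes.

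As groups, the anterior and posterior ranks overlapped at the promoters of Etv4, Etv5, Gabpa and Ets1, given here in the order of the 4 embryos. The Etv4 promoter ranked 12710, 8441, 8193 and 10153 in the anterior and 13502, 9420, 4591 and 3381 in the posterior part. The Etv5 promoter ranked 1838, 2152, 1809 and 1896 against 1369, 1385, 1872 and 2362, and the Gabpa promoter 644, 1230, 897 and 1009 against 265, 765, 398 and 707. At Ets1 the promoter ranked 3650, 4013, 5300 and 2593 against 5045, 3421, 8115 and 7533. The ranks of Etv1 +32.8 kb overlapped as well, with 28073, 22218, 26999 and 13866 in the anterior and 10617, 11867, 8372 and 16200 in the posterior part, and as 1 site it differed by -0.368 ± 0.11 (SE; limma, adjusted p = 0.166). Within embryos, the posterior rank of the Gabpa promoter was the stronger in 4 of 4, and its difference in score with the embryo as a block was -0.0137 ± 0.0372 (SE; limma, adjusted p = 0.923). The Etv4 and Etv5 promoters each ranked ahead in the posterior part in 2 of 4 embryos, the Ets1 promoter in 1 and Etv1 +32.8 kb in 3. Of the 16 sites of the 6 genes listed in all 8 control libraries, 2 (the Gabpa promoter and Etv1 +60.4 kb) ranked ahead in the posterior part of every embryo, against 9.14% of all 23794 such sites. Another 2 (Ets1 +24.2 kb and Etv1 +5.3 kb) ranked ahead in the anterior part of every embryo, against 12.2% of all.

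The next comparisons asked whether induction of ETV2 in the hindlimb changed accessibility at the genes of these other ETS factors. In the anterior part 53 of 40756 intervals (0.13%) were called, and none of 27 intervals of the 6 genes, none of which had an unadjusted p under 0.05. In the posterior part 46 of 40284 intervals (0.114%) were called, and none of 24, of which 1 had an unadjusted p under 0.05. It was Etv1 +71.0 kb, with a difference of 0.237 ± 0.0963 (SE) towards Etv2OE (limma, adjusted p = 0.825). Leaving out 1 library at a time moved the count over all intervals between 51 and 176 in the anterior part (176 without Etv2OE replicate 7) and between 64 and 144 in the posterior part (144 without Etv2OE replicate 9). Etv4 +12.6 kb, which ranked ahead in every Etv2OE posterior library, differed by 0.0793 ± 0.0378 (SE; limma, adjusted p = 0.85).

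Site by site, Etv1 +5.3 kb was listed in 4 of 4 control anterior and 0 of 3 Etv2OE anterior libraries, and it was the only one of 32 sites with that pattern, which 0.988% of all sites showed. Control anterior lists were longer, with 40945 to 45762 summits against 32666 to 37993, and all but 1 of the 4 control ranks at this site lay past the first 30000. No site of the 6 genes had the opposite pattern, which 0.107% of all sites showed. The effect of Etv2OE was also compared between the parts by an interaction term, which called 24 of 53090 intervals and none of 32 intervals of the 6 genes (limma, lowest adjusted p = 0.958, and 1 with an unadjusted p under 0.05).

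The comparison of forelimb with hindlimb EYFP+ cells asked how Etv2-EYFP+ cells of the 2 limbs differ. No interval of 13285 was called (0.0%), and 482 had an unadjusted p under 0.05, so none of 10 intervals of the 6 genes was called either, with 1 at an unadjusted p under 0.05. Etv1 +60.4 kb was the one, with a mean score of 0.473 in the 3 forelimb libraries and 0 in the 3 hindlimb libraries, a difference of 0.473 ± 0.151 (SE; limma, adjusted p = 1.0, or 0.663 with the pool as a block). It was the only one of 10 sites listed in all forelimb and no hindlimb libraries of equal length (0.771% of all sites). In the whole lists all 3 hindlimb libraries listed Etv1 +60.4 kb, and the site that was listed in all forelimb and no hindlimb libraries was Etv1 +32.8 kb, 1 of 22 sites (2.85% of all). Forelimb lists were the longer, with 37211 to 48381 summits against 32245 to 41281. The hindlimb genes Tbx4 and Pitx1 were both listed in 3 of 3 hindlimb libraries and 0 to 2 of them in each forelimb library. The forelimb gene Tbx5 was listed in at most 1 library of either group.

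E10.5 HL EYFP+ cells were then set against E10.5 CKO cells, which differ from them in the Etv2 genotype and also in how the cells were selected, and these cannot be told apart. Of 12248 intervals, 382 (3.12%) were called, 78 higher in HL EYFP+ and 304 higher in CKO. None of the 10 intervals of the 6 genes was called, and 1 had an unadjusted p under 0.05. Etv4 +12.6 kb had a mean score of 0.632 in the 3 HL EYFP+ libraries and 0 in the 2 CKO libraries, a difference of 0.632 ± 0.121 (SE; limma, adjusted p = 0.0902). With 1 estimate of the spread over all replicated groups the adjusted p was 0.00688 (limma), a setting that called 1191 intervals (9.72%). Over all intervals, limma called 0 when HL EYFP+ replicate 1, HL EYFP+ replicate 2, CKO replicate 1 or CKO replicate 2 was left out, with 1717, 1694, 741 and 739 at an unadjusted p under 0.05, and 459 when HL EYFP+ replicate 3 was left out.

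The other differences at these genes did not pass the threshold. The Etv1 promoter at -639 bp was higher in score in HL EYFP+ cells by 0.523 ± 0.243 (SE; limma, adjusted p = 0.467) and Ets1 +24.2 kb by 0.462 ± 0.197 (limma, adjusted p = 0.412). The Gabpa promoter differed by 0.21 ± 0.0813 (limma, adjusted p = 0.358) and Etv1 +60.4 kb by -0.306 ± 0.181 (limma, adjusted p = 0.569). In lists of equal length Etv4 +12.6 kb was in all HL EYFP+ and no CKO libraries (4.86% of all sites), and Etv1 +60.4 kb in all CKO and no HL EYFP+ libraries (7.63% of all sites). In the whole lists the sites in all HL EYFP+ and no CKO libraries were Etv5 +7.5 kb and Ets2 -27.2 kb, 2 of 17 (7.94% of all sites).

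At E10.25 posterior hindlimb cells lacking Etv2 could be compared with wild-type ones of the same stage. The CKO embryos also carried HoxB6-Cre, and this cannot be told apart from the loss of Etv2. Of 13765 intervals, 301 (2.19%) were called, 41 higher in CKO and 260 higher in WT, and none of the 10 intervals of the 6 genes, none of which had an unadjusted p under 0.05. Without either WT library no interval was called by limma, and 810 (without replicate 1) and 737 (without replicate 2) had an unadjusted p under 0.05. Leaving out a CKO library gave 178 to 329 calls. The promoters overlapped: Gabpa ranked 2718, 1047, 1269, 713 and 2025 in CKO and 954 and 708 in WT, and Ets1 ranked 2647, 1203, 2423, 3696 and 3761 against 1739 and 1206. The Etv4 promoter was the exception in raw rank, with 7902, 12660, 10949, 7612 and 12737 in CKO against 16687 and 16629 in WT. The CKO lists held 15626 to 42742 summits and the WT lists 43566 and 34051. As a share of list length, the Etv4 promoter ranks of CKO and WT overlapped. How many promoters separate likewise in raw rank was not counted. The mean scores of the Etv4 promoter were 0.0898 and 0, a difference of 0.0898 ± 0.0952 (SE; limma, adjusted p = 0.745). Among 20 sites, Etv1 +71.0 kb alone was listed in both WT and no CKO libraries (5.61% of all sites), and none had the reverse pattern (0.121% of all sites).

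**Figure D4:**
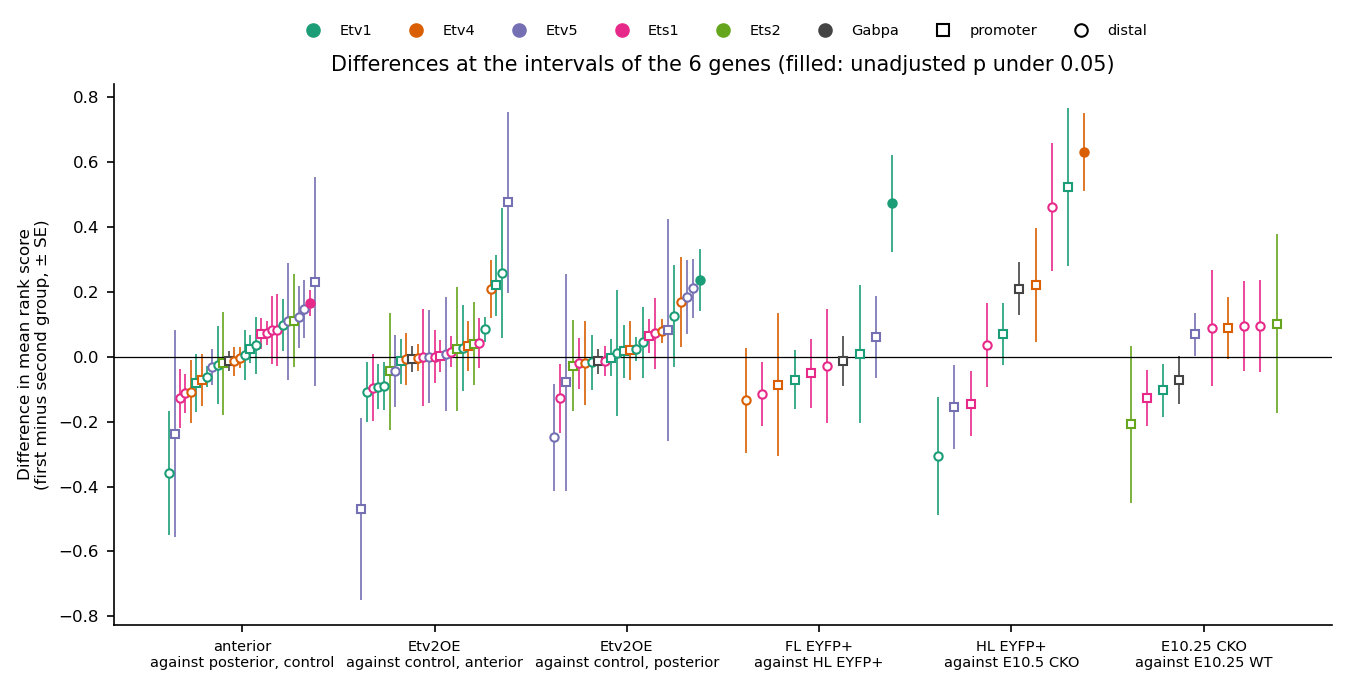
Difference in mean rank score (y axis, first group minus second, with bars of 1 SE) for the intervals of the 6 genes in the 6 comparisons. Squares are promoter and circles distal intervals, and a filled symbol has an unadjusted p under 0.05. No interval passed the adjusted threshold, and the filled symbols are 1 interval each in 4 of the comparisons.

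Adjacent intervals can divide the summits of 1 site. At the Etv5 promoter, intervals 211 bp apart gave differences of -0.237 and 0.231 between control anterior and posterior cells and of 0.476 and -0.470 between Etv2OE and control anterior cells, none called. Taken as 1 site, the Etv5 promoter differed by -0.00589 ± 0.0276 and by 0.00656 ± 0.0335 (SE).

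**Figure D5:**
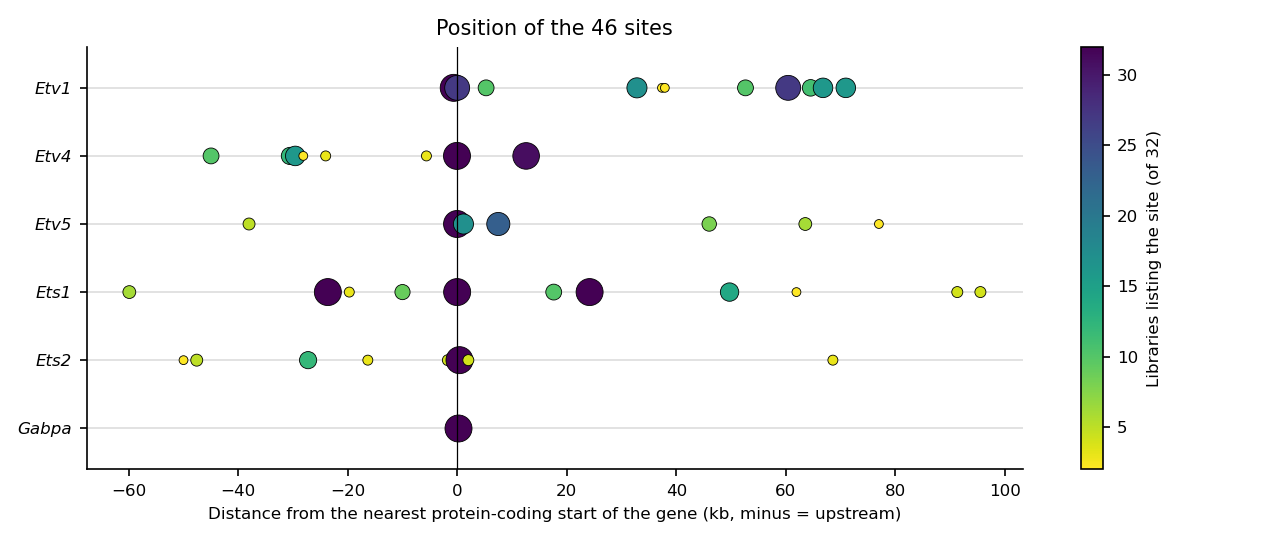
Position of the 46 sites by distance from the nearest protein-coding start of each gene (kb), with the size and colour of a point for the number of libraries that listed it. Etv1 and Ets1 have their sites spread along long introns, and Gabpa has its promoter site alone.

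The other genes of the family were less uniform. Of 20 further ETS genes, 6 to 14 had a listed promoter in a given library, against 6 of the 6 genes followed here. Elf1, Elf2, Elk1, Elk4 and Etv6 were listed in all 32 libraries, and Ehf, Etv2, Spdef, Spi1, Spib and Spic in none. Of the family's promoter intervals, 1 of 15 was called in control embryos. It was Erg (an endothelial ETS factor), with a higher score in the anterior part by 0.325 (limma, adjusted p = 0.0477, or 0.229 with the embryo as a block). Of all 14515 promoter intervals tested there, 24 were called higher and 26 lower in the anterior part. Erg was also called with summits joined into sites, and it was not called in the whole lists. Elk4 had a lower score in E10.25 CKO by 0.429 (limma, adjusted p = 0.0277). That was 1 of 8, and of all 10372 promoter intervals 22 were called higher and 143 lower in CKO. An adjacent Elk4 interval differed by 0.431 in the other direction (limma, adjusted p = 0.422), and with summits joined into sites the Elk4 promoter was not called. In the whole lists an Elk4 interval was called lower in E10.25 CKO (1 of 19), where 21 of all 17459 promoter intervals were called higher and 305 lower. The whole lists also gave an Elk4 interval lower in HL EYFP+ than in E10.5 CKO cells (1 of 13). There 167 of all 14257 promoter intervals were called higher and 152 lower. Of 11 partners and regulators, which include the GABPA partners Gabpb1 and Gabpb2, the PEA3 repressor Cic and the FGF feedback genes Dusp6, Spry1, Spry2 and Spred1, 10 or 11 had a listed promoter in every library, and none of their promoter intervals was called in any of the 6 comparisons. Each comparison tested 8 to 20 of these intervals, and calls were rare over all promoter intervals as well.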

How the data were processed

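Mouse limb bud cells were profiled by ATAC-seq in 32 libraries, and 1 list of summits per library was used. The authors aligned reads to mm10 with Bowtie2 2.2.4, kept uniquely mapped pairs, removed duplicates with Picard, shifted reads for the Tn5 cut and called peaks with MACS2 in each library apart. No source used here gives the MACS2 version. The score deposited by the authors is the −log10 of the q-value, and every list ends at a q of about 0.05. Values grow with depth, which is unknown, so they were used only as ranks within a list.

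Summits were placed in 200-bp intervals (nearest centre within 200 bp) and annotated with GENCODE M21 on the same build, GRCm38.p6. The rank score is (N + 1 - rank) / N in lists of equal length (N of 10000 for 18 libraries and 30000 for 14), and 0 outside them. Scores of 6 comparisons were fitted with limma 3.58.1 in R 4.3.3, with adjustment over all intervals in at least 2 of the compared libraries. The fit was tested on simulated ranks. For description, intervals with centres at most 500 bp apart were joined into sites, a step chosen after seeing the data. Python 3.11.15, pandas 2.3.3 and samtools 1.23.1 were used.

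The 6 genes, the gene lists and the tests were chosen with earlier results of these data known. For each gene the text names its promoter site, the 3 distal sites in most libraries, any called site and any distal site listed in all libraries of one compared group and none of the other. Ets1 -10 kb and the remaining comparisons by pattern were picked after their values were seen. In the overexpression experiment, anterior and posterior samples of the same number came from the same embryo. Forelimb and hindlimb EYFP+ samples of the same number came from the same pool. For the other groups a shared number does not mark a shared embryo or pool. Deviations from the group means correlated at 0.0061 to 0.039 within control embryos, against -0.0249 to 0.0213 for unlike numbers. For Etv2OE embryos the values were 0.0225 to 0.045 against -0.0314 to -0.0089. For the EYFP+ pools they were 0.317 to 0.626 against -0.412 to 0.164. Replicates shared at most 4.21% of summit positions, so none was a repeat deposit. Alternatives covered list length, interval width and reach, filters, the spread, the replicate block and each library left out. No depth, interval or floor can be given.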

Additional observations from a re-analysis of the deposited data

Results flagged for a closer look

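At the Etv5 promoter, 1 of the 5 E10.25 CKO libraries stood far from the others: the summit ranked 2029 in replicate 1 and 612 to 1005 in the other 4 (median 820), a gap of 0.723 of the whole range against Dixon's limit of 0.71. At Etv5 +1.1 kb, Control anterior replicate 3 ranked 17085 against 27402 to 29273 (median 28344) in the other 3 libraries, a gap of 0.846 against a limit of 0.829. Such gaps were looked for in 45 groups, and chance alone gives about 1 in 20.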

How the results depend on the processing

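The count of intervals of the 6 genes that were called stayed at 0 in 90 of 92 alternative fits over the 6 comparisons, among them the 40 that left out 1 library, where the lowest and highest counts were both 0. With sites joined and whole lists used, a setting chosen after seeing the data, 1 was called between control anterior and posterior cells: Ets1 -10 kb at 0.351 ± 0.0748 (SE; limma, adjusted p = 0.0391, or 0.137 in whole lists with the replicate block). With 1 estimate of the spread over all replicated groups, 1 was called between HL EYFP+ and E10.5 CKO cells: Etv4 +12.6 kb at 0.632 ± 0.128 (SE; limma, adjusted p = 0.00688). For the 4 named differences, 57 alternative values kept their direction, and 5 alternatives gave none. In each of the 4 the second group scored 0 in lists of equal length. Fits of the same intervals in those lists therefore could not reverse the direction. The replicate block called 0 intervals of the 6 genes, whereas over all intervals it reduced the anterior-posterior calls from 816 to 66.

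Over all intervals the counts moved more. With every library kept, the lowest and highest were 66 and 3396 for control anterior and posterior cells, 0 and 108 and 0 and 207 for Etv2OE in the anterior and posterior parts, 0 and 192 for FL and HL EYFP+ cells, 140 and 1797 for HL EYFP+ and E10.5 CKO cells and 182 and 2108 for E10.25 CKO and WT. Leaving out 1 library gave, in the same order, 617 to 875, 51 to 176, 64 to 144, 0 in every fit, 0 to 459 and 0 to 329. The counts of 0 in the last 2 came without HL EYFP+ replicate 1 or 2 or either E10.5 CKO library, and without either E10.25 WT library. A lone library in a group is assumed to vary like the other group. Leaving out 1 library moved the adjusted p of Ets1 -10 kb between 0.0544 and 0.226 and that of Etv4 +12.6 kb between 0.0596 and 0.675 (limma). The number of intervals of the 6 genes, 62, ranged from 46 to 92 and that of promoter intervals, 10, from 7 to 13. Depth, which is unknown, limits every site that was not listed.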

Other observations

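Promoters elsewhere in the genome that ranked most like those of the 6 genes were sought among 11013 promoters, by Pearson's r of the rank score over the 32 libraries in lists of 10000 summits. The libraries share depth and experiment, so the values are descriptions. The closest were Crebbp (r = 0.974), Myef2 (0.964) and Cdk9 (0.954) for Ets2, whose promoter was within the best 10000 summits in 9 libraries. For Gabpa they were Plscr1 (0.796), M6pr (0.781) and Nr3c2 (0.73), and for Etv5 they were Ywhaq (0.705), Napa (0.701) and Ppp6r3 (0.67). For Etv1 they were Spin2c (0.721), Rdh13 (0.68) and Brix1 (0.674), for Ets1 Sertad3 (0.696), Mesd (0.671) and Tle6 (0.671), and for Etv4 Cdk5rap3 (0.657), Hoga1 (0.632) and Atp5d (0.608).

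The number of distal summits of the 6 genes in a library ran from 2 to 24. It was 16 to 22 in control anterior, 17 to 24 in control posterior, 12 to 18 in Etv2OE anterior and 13 to 17 in Etv2OE posterior cells. These whole lists differ in length. In lists of equal length the number was 12 to 13, 8 to 12, 9 to 12 and 10 to 11, in the same order. Whole lists of the first experiment held 11 to 19 in E10.5 FL EYFP+ cells, 9 to 11 in HL EYFP+ cells and 4 and 9 in E10.5 CKO cells. E10.25 CKO cells had 2 to 12 and E10.25 WT cells 7 and 11. Lists of equal length held 4, 3, 2 to 3, 1 to 3 and 2, in the same order. All summits of the 6 genes, promoter and distal together, made up from 0.379 (E9.5 HL, 14 summits) to 0.673 (Etv2OE anterior replicate 7, 25 summits) per 1000 summits of the list, and E10.5 Anterior, with 9 in the shortest list, stood at 0.654.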
